A study of Mus musculus with 8 samples.

Results

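Npdc1, Vasn, Mid1, Vnn1 and Clec1a are 5 mouse genes that were chosen by measured values, their lower level in the stem and progenitor fraction of Vav-Etv2 bone marrow without a lower level in its granulocyte fraction. They were read with 7 of the 55681 distinct probes of a whole-genome expression array, and each of the 5 is represented among the 23231 features that could be tested. RNA was taken from FACS-sorted bone marrow cells of mice aged 6 weeks on a mixed background that the labels give as B6/CBA and others. There were 4 groups of 2 arrays each. Vav-Etv2 KSL, control KSL, Vav-Etv2 Gr and control Gr samples were compared. In Vav-Etv2 mice an Etv2 transgene is switched on by an iCre transgene driven by Vav, a promoter active in blood cells. The labels call the other mice control and do not say which of the transgenes, if any, they carried. KSL stands for Kit-positive, Sca-1-positive, lineage-negative cells, the fraction that holds haematopoietic stem cells and early progenitors. Gr stands for Gr-1-positive, Mac-1-positive cells, mostly granulocytes and their late precursors. Whether an array stands for 1 animal or a pool is not in the labels, so every error and p-value here measures only the spread between these samples.

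The proteins encoded by the 5 genes have unrelated jobs. Npdc1 is a membrane protein first described in neural cells, where it slows proliferation and binds E2F1 and cyclins. Vasn, or vasorin, is a cell-surface protein that binds TGF-beta and is shed by the protease ADAM17. Mid1 is a microtubule-bound E3 ubiquitin ligase of the TRIM family that lowers the catalytic subunit of the phosphatase PP2A through the adaptor alpha4. Vnn1 is a pantetheinase held at the cell surface by a lipid anchor, and splits pantetheine into pantothenate, the precursor of coenzyme A, and cysteamine. Clec1a is a C-type lectin receptor of endothelial and myeloid cells that recognises melanin of fungal spores. Etv2, the factor that the transgene supplies, belongs to the ETS family, whose members bind DNA at sites with a GGAA core, and it acts in the embryo on the precursors of blood and vessels.

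The probes are shown because each value below is the brightness of 1 of them. Each probe is 60 bases long, and its first 30 bases are printed 5′ to 3′, from the deposited files. Coordinates are on build mm9, as in those files, which do not say in which exon or UTR a probe lies.
Npdc1, chr2:25264943-25265002, plus strand: aaccctagagcccaggcatggatagagagt
Vasn, probe used, chr16:4650723-4650782, plus strand: tttggtttttgtaagactgttgatgatatg
Vasn, dim probe, chr16:4649784-4649843, plus strand: tattctatctgtgtcacacccttgggagct
Mid1, probe used, chrX:166428452-166428511, plus strand: aggttggatgtcaccaccacaagggaaaac
Mid1, second probe, chrX:166428354-166428413, plus strand: tatgtgtgaaccctaggcacagttttttca
Vnn1, chr10:23624524-23624583, plus strand: ctgtttgtcaacagtggactcgggtgtaag
Clec1a, chr6:129377543-129377602, minus strand: taaagtgaaatgtctgaggcgaaatcatga

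The promoters of 3 of the 5 genes were also read, because the transgene encodes a factor of the ETS family. RefSeq's promoter table for GRCm38.p6 held windows for Npdc1, Vasn and Mid1, while Vnn1 and Clec1a are named only. The 250 bases before the start of each gene are printed 5′ to 3′ on the plus strand, with the letters GGAA or their reverse complement TTCC in capitals.
Npdc1, chr2:25402800-25403049: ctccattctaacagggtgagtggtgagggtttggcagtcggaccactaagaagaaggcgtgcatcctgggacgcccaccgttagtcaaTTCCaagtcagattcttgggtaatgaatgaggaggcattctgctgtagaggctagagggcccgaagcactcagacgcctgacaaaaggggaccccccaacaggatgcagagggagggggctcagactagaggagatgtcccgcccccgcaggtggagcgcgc
Vasn, chr16:4639695-4639944: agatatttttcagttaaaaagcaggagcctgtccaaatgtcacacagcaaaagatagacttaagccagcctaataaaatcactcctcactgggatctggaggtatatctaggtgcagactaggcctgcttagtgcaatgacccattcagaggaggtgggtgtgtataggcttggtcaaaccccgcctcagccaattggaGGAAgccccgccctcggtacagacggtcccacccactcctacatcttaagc
Mid1, first of 3 listed starts, chrX:169684949-169685198: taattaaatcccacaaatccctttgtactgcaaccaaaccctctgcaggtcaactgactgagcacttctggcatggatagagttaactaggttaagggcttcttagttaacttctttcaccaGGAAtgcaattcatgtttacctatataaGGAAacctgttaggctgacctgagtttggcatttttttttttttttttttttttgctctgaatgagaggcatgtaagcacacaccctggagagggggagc
The full windows of 300 bases held 1 match to GGAA on either strand at Npdc1 and 1 at Vasn. The 3 windows of Mid1 held 4, 3 and 1 matches. Of all 32851 promoter windows in the table, 96% held at least 1 match, with a median of 3 per window. The longer letters CCGGAAG, which contain the GGAA core, the letters AGATAA of a GATA site and the letters TGTGGT of a RUNX site were found on neither strand of any of these windows. Those letters occurred in 8.86%, 11.2% and 16.8% of all windows. A match of letters describes the sequence and is not evidence of binding.

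Levels are log2 processed signals, with the 75th percentile of each array set to 0, so a level of -3 means a signal 3 log2 units under that percentile. They cannot be compared between probes. The 75th percentile itself lay between signals of 136.5 and 300.9 on the 8 arrays, 47.7% to 55.48% of probes were well above background, and no probe was saturated. Etv2 was well above background on every Vav-Etv2 array and on neither KSL control array, with levels of 0.19 and -1.24 in Vav-Etv2 KSL cells and of -4.37 and -4.73 in control KSL cells. It read -0.55 and -1.30 in Vav-Etv2 Gr cells and -4.48 and -0.55 in control Gr cells, so the array labelled Gr control 2 carried Etv2 signal against its label. For the 5 genes, the main values that rest on that array are therefore given also without it, as bounds where the array labelled Gr control 1 was not well above background. Kit, which defines the KSL gate, was 3.45 and 4.32 in Vav-Etv2 KSL cells against 5.15 and 5.15 in control KSL cells, and between 1.41 and 2.04 on the Gr arrays. Ly6a, the gene for Sca-1, went against the gates, with 2.25 and 3.09 in Vav-Etv2 KSL cells and 3.65 and 3.59 in control KSL cells, against 4.47 to 6.33 on the Gr arrays. Itgam, the gene for Mac-1, lay between 4.54 and 5.19 in KSL cells and between 5.95 and 7.20 in Gr cells on the probe used. Other Itgam probes set the gates further apart. They read -1.13 to 1.58 and -3.69 to -2.42 in KSL cells, against 4.46 to 6.37 and -0.25 to 1.52 in Gr cells. All KSL arrays lay in 1 row of the slide and all Gr arrays in another, so cell type and slide row cannot be told apart. Sex was not balanced between the cell types either, as the Xist values given with Mid1 show.

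In KSL cells the 5 genes were all lower in Vav-Etv2 than in control samples, which is how they were chosen. The 2 Vav-Etv2 arrays lay below both control arrays for 5 of 5 genes, as they did for 25.5% of all features, and the difference was at least 4-fold, as fitted, for 5 of 5 genes, as it was for 1.66% of all features. Nothing is read from these counts. For Vasn, Vnn1 and Clec1a the detection floor allows only bounds, which for Vnn1 fall under 4-fold. Both control KSL arrays were well above background for 5 of 5 genes, whereas in Vav-Etv2 KSL cells both arrays were for Npdc1 and Mid1, and neither was for Vasn, Vnn1 and Clec1a. A feature entered the test with 2 or more arrays well above background. Vnn1 and Clec1a met this only through the 2 control KSL arrays, so they could not have been kept unless they were high there. In bulk samples, fewer cells of a type and less RNA per cell cannot be told apart.

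**Figure D1:**
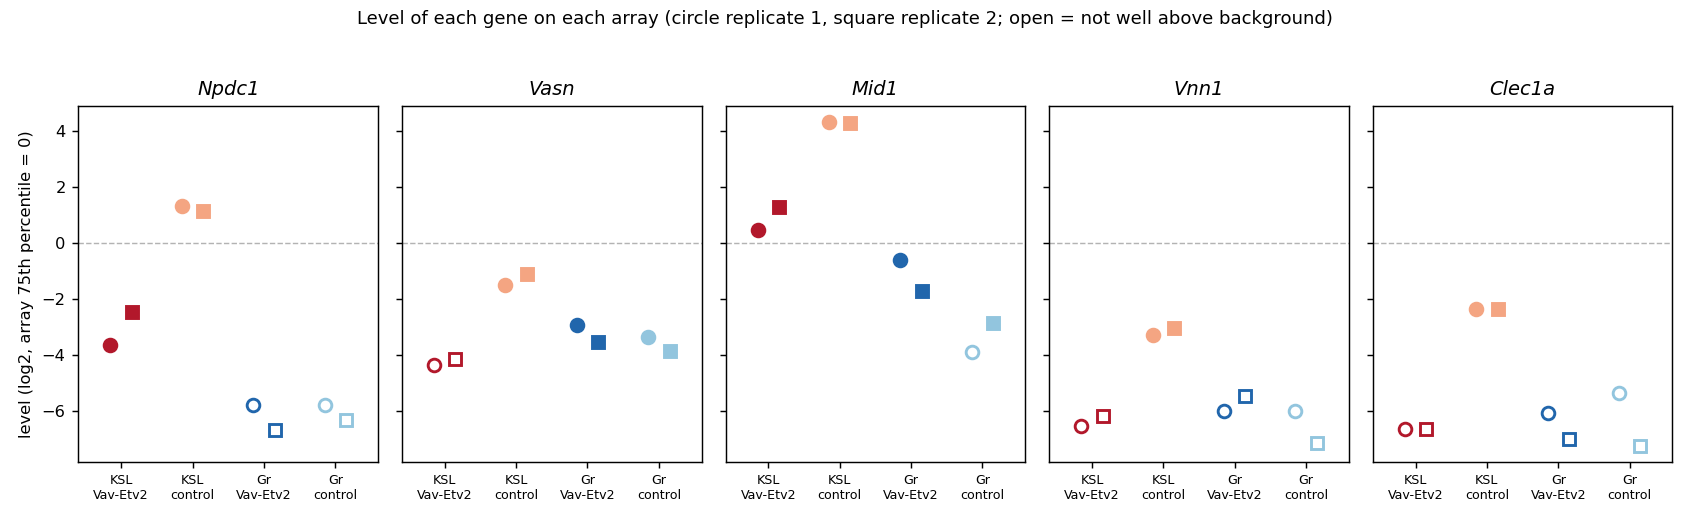
Level of each gene on each array, as log2 processed signal with the 75th percentile of the array at 0, in Vav-Etv2 KSL, control KSL, Vav-Etv2 Gr and control Gr samples (n = 2 arrays each). Circles are replicate 1, squares replicate 2, and open symbols were not well above background. In every panel both Vav-Etv2 KSL arrays lie below both control KSL arrays, and Mid1 alone among the genes measured in Gr cells lies higher in both Vav-Etv2 Gr arrays (-0.63 and -1.72) than in both control Gr arrays (-3.92 and -2.87).

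Npdc1, the brake on proliferation of neural cells, read -3.67 and -2.48 in Vav-Etv2 KSL cells against 1.30 and 1.12 in control KSL cells. The processed signals behind these levels were 16.8 and 38.8 in Vav-Etv2 cells and 479 and 578 in control cells. All 4 arrays were well above background, so the fold is measured on both sides. The difference was -4.28 (SE 0.50, n = 2 each), or 19.4-fold lower. The replicates differed by -4.96 and -3.60, taken pair by pair. In Gr cells Npdc1 was not well above background on any array, with -5.78 and -6.69 in Vav-Etv2 and -5.79 and -6.33 in control cells, so a difference there was not detectable. Control KSL cells exceeded control Gr cells by 7.27, or at least 59.7-fold, and at least 32.1-fold without the array labelled Gr control 2. In Vav-Etv2 KSL cells the excess over Vav-Etv2 Gr cells was 3.16, or at least 2.34-fold.

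Mid1, the ubiquitin ligase acting on PP2A, was read by 2 probes placed on chromosome X, both well above background in all KSL samples. It read 0.44 and 1.26 in Vav-Etv2 KSL cells against 4.31 and 4.29 in control KSL cells. The processed signals were 289 and 518 in Vav-Etv2 cells and 3877 and 5202 in control cells. The difference was -3.45 (SE 0.53), or 10.9-fold lower. The second probe gave 0.07 and 0.48 in Vav-Etv2 KSL cells and 3.69 and 3.59 in control KSL cells, and a difference of -3.37 (SE 0.55), or 10.3-fold lower. The 2 probes do not overlap but share their samples, so they are not independent replicates of the difference.

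In Gr cells Mid1 ran the other way. It read -0.63 and -1.72 in Vav-Etv2 Gr cells against -3.92 and -2.87 in control Gr cells, where the lower of the control values was not well above background. The groups did not overlap, and the difference was 2.22 (SE 0.53), or 4.66-fold higher. Both Vav-Etv2 arrays lay above both controls for 5.84% of all features. Mid1 was the only one of the 5 genes whose Gr arrays were separated in that direction at signals measured in both groups. The second probe differed by 2.59, or 6.04-fold higher. Paired by replicate number, the difference was 3.28 for replicate 1 and 1.16 for replicate 2. Leaving out the array labelled Gr control 2 left 1 control array, which was not well above background, and Mid1 was then at least 6.15-fold higher. With the normexp background correction it was 0.81. Xist, which marks female cells, read 0.35 and -6.83 in Vav-Etv2 Gr cells and 0.27 and -7.10 in control Gr cells, so in Gr cells the replicate number goes with sex. In KSL cells Xist was high on every array, at 2.43 and 2.69 in Vav-Etv2 and 2.12 and 2.41 in control samples. Sex is therefore not balanced between control KSL and control Gr cells. On the first Vav-Etv2 Gr array, where Mid1 was highest of the Gr arrays, the summed markers of B cells and of megakaryocytes were high as well. The summed signals over the 75th percentile were 25.0 and 6.42 in Vav-Etv2 Gr cells against 7.70 and 5.75 in control Gr cells for 7 B cell genes. They were 10.2 and 0.854 in Vav-Etv2 Gr cells against 2.50 and 1.00 in control Gr cells for 5 megakaryocyte genes. Most of the 10.2 was Pf4, at 3.11 on that array against 0.48 and -2.71 in control Gr cells. Gp1ba was also higher, at -2.22 against -5.93 and -6.80. Ppbp, at -5.78, and Itga2b, at -1.23, did not lie above both controls, and Gp9, at -0.11, was close to -0.20 in the first. The sums of endothelial and of T and NK cell genes were not above both controls there. They were 15.5 and 9.23 in Vav-Etv2 Gr cells against 16.7 and 8.59 in control Gr cells for 8 endothelial genes. For 6 T and NK cell genes they were 5.66 and 2.37 against 9.68 and 3.08. The endothelial sum is mostly Kdr, which read 3.72 on that array against 3.98 and 2.85 in control Gr cells. By gene, 1 of the 8 endothelial differences in Gr cells was negative, with a median of 0.95. On that array 7 of the 8 were well above background, against 3 and 4 in control Gr cells. Cdh5 read -1.84 there against -5.81 and -5.64 in control Gr cells. The part of sex and of these markers in the Mid1 values was not tested. Even in Vav-Etv2 cells Mid1 stayed higher in KSL than in Gr cells, by 2.03 or 4.08-fold, against 7.70 or 208-fold between control KSL and control Gr cells, a fold that was at least 274 without the array labelled Gr control 2.

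Vasn, the TGF-beta binding protein, read -4.36 and -4.15 in Vav-Etv2 KSL cells, neither well above background, against -1.51 and -1.11 in control KSL cells. The processed signals were 10.4 and 12.2 in Vav-Etv2 cells and 68.3 and 124 in control cells. The difference was -2.95 (SE 0.35), or at least 7.68-fold lower. This bound uses the detection floor of the first Vav-Etv2 array, -4.35, and the reading itself on the second. That reading was not well above background but lay above the floor of its array, -4.49, so the bound is close to the fitted difference. In Gr cells Vasn was well above background on all arrays, with -2.95 and -3.55 in Vav-Etv2 and -3.37 and -3.87 in control cells. The Gr groups overlapped, and the difference was 0.37 (SE 0.35), or 1.29-fold, against 0.11 or 1.08-fold without the array labelled Gr control 2. Vasn was the gene whose place between cell types was turned round. Control KSL cells exceeded control Gr cells by 2.31, or 4.96-fold (4.16-fold without the array labelled Gr control 2), whereas Vav-Etv2 KSL cells lay below Vav-Etv2 Gr cells by at least 2.00-fold. The dim Vasn probe was not well above background on any array. It read -6.43 and -5.48 in Vav-Etv2 KSL cells and -5.11 and -6.44 in control KSL cells, and it did not pass the filter. It therefore gives no reading of Vasn, and the mean over both probes, a KSL difference of -1.56, averages in a probe without signal. The probe used has 25% G and C and the dim one has 55%.

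Vnn1, the pantetheinase, was near the detection floor even in the controls. It read -6.55 and -6.17 in Vav-Etv2 KSL cells, neither well above background, against -3.29 and -3.04 in control KSL cells, with control signals of 19.9 and 32.3. The fitted difference was -3.20 (SE 0.44), but the floor allows only the statement that it was at least 2.39-fold lower. In Gr cells no array was well above background, with -6.00 and -5.49 in Vav-Etv2 and -6.01 and -7.17 in control cells, so these 4 values have no order. Control KSL cells exceeded control Gr cells by at least 2.88-fold, and by at least 1.55-fold without the array labelled Gr control 2.

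Clec1a, the melanin receptor, read -6.64 and -6.66 in Vav-Etv2 KSL cells, neither well above background, against -2.37 and -2.37 in control KSL cells. The control signals were 37.6 and 51.6, and the Vav-Etv2 signals of 2.14 and 2.13 are those of a spot near background. The fitted difference was -4.28 (SE 0.62), or at least 4.14-fold lower. In Gr cells Clec1a was not well above background on any array, with -6.08 and -6.99 in Vav-Etv2 and -5.36 and -7.24 in control cells. Control KSL cells exceeded control Gr cells by at least 5.00-fold, and by at least 2.69-fold without the array labelled Gr control 2.

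**Figure D2:**
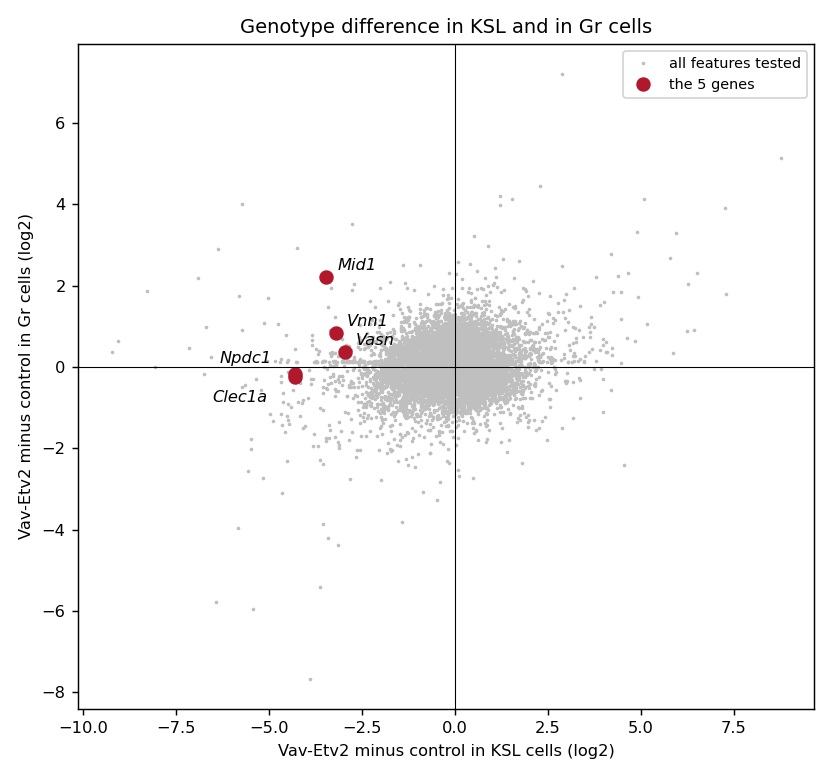
Difference between Vav-Etv2 and control samples in KSL cells (horizontal axis) against that in Gr cells (vertical axis), both in log2, for all 23231 features (grey points) and the 5 genes (red points), each from 2 arrays a group. The 5 genes lie left of 0, at fitted differences between -4.28 and -2.95, and only Mid1 lies more than 2 log2 units above 0 in Gr cells, at 2.22. Npdc1, Vnn1 and Clec1a were not well above background in Gr cells, so their vertical positions are not measured differences.

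The order of the levels differed between genes. Npdc1 and Mid1 were highest in control KSL cells, next in Vav-Etv2 KSL cells and lowest in Gr cells, where the Npdc1 groups overlapped below background and Mid1 was lowest in control Gr cells. Vasn was highest in control KSL cells, the overlapping Gr groups came next, and Vav-Etv2 KSL cells were lowest. Vnn1 and Clec1a were measured in control KSL cells and were below background in the other 3 groups. Both control KSL arrays lay above both control Gr arrays for each of the 5 genes, as for 34.9% of all features. The control KSL arrays served both in this comparison and in the one that chose the genes, so these values are a description.

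Across the 8 arrays the 5 genes ran together, with Pearson correlations between 0.68, for Vasn with Mid1, and 0.94, for Npdc1 with Mid1. These points share the control KSL arrays that raised each gene, and below background they share the floor. The features most like each gene over the 8 arrays were then found among 15087 named ones. For Npdc1 they were Scube3 (r = 0.99), Tnfrsf17 (0.99) and Camsap3 (0.99), and Camsap3 was well above background on all 8 arrays, with a KSL difference of -1.89. For Mid1 they were Ybx1, Gm6306 and Oxld1, at 0.99, 0.98 and 0.98, whose KSL differences were small at -0.69, -0.98 and -0.49. For Vasn they were Defb29, Gstm2 and Ppp2r2b, at 0.96, 0.96 and 0.95. Of these, Defb29 and Ppp2r2b were well above background on only 2 arrays. For Vnn1 they were Sult1a1 (0.98), Spry3 (0.95) and Hspb8 (0.95). For Clec1a they were Snord123, Hspb8 and Spry3, each at 0.99. Spry3 and Hspb8, named for both genes, were well above background on 2 arrays, as were Snord123, Vnn1 and Clec1a.

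The genes that work beside the 5 were taken from 5 lists of 66 genes, of which 60 were measured. None passed the test in KSL cells (limma, adjusted p under 0.05), in either direction, and 5 had an unadjusted p under 0.05. Among all features 0.0172% passed in KSL cells, 1 higher and 3 lower, and 1724 had an unadjusted p under 0.05, so the test made few calls anywhere. In Gr cells none of the 60 passed and 2 had an unadjusted p under 0.05, against 0.00861% of all features called and 296 with an unadjusted p under 0.05. Without the array labelled Gr control 2, limma called 0 features in Gr cells and 1936 had an unadjusted p under 0.05. The median difference of all features was 0.0026 in KSL cells and -0.0101 in Gr cells. Between control KSL and control Gr cells, 34.7% of all features passed, 3778 higher and 4287 lower in KSL cells. Scaled by the median of each array, the split was 2793 higher and 4978 lower. Of the 60 list genes, 13 were higher and 14 lower in control KSL than in control Gr cells. The 8 of these calls that are named with their values held without the array labelled Gr control 2, with limma adjusted p between 0.00322 and 0.0226.

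**Figure D3:**
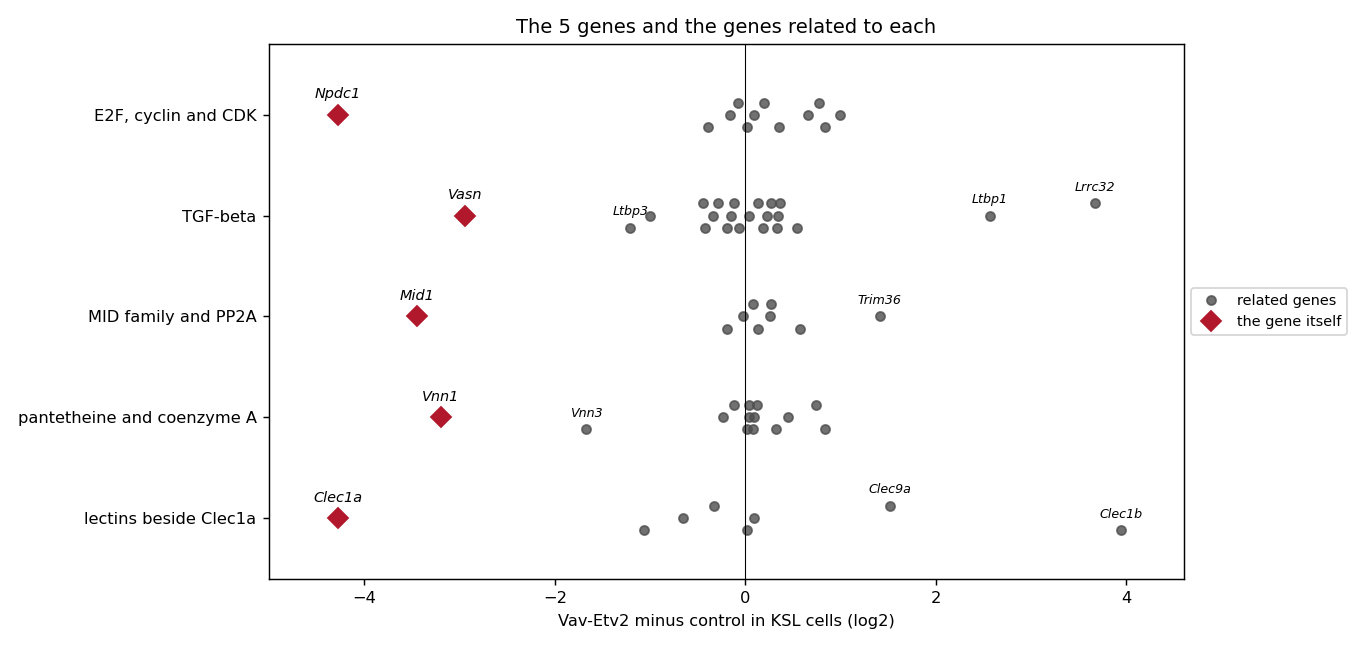
Difference between Vav-Etv2 and control KSL samples (horizontal axis, log2, 2 arrays a group) for the genes of 5 lists (grey circles) and for the gene that each list goes with (red diamonds). The lists hold 11, 21, 8, 13 and 7 measured genes from top to bottom, and 57 of the 60 lie within 2 log2 units of 0. The 5 genes, chosen for their low values, lie between -4.28 and -2.95, whereas the lowest list gene, Vnn3, lies at -1.67.

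Around Npdc1, 0 of the 11 measured E2F, cyclin and CDK genes passed the test in KSL cells in either direction, with 1 at an unadjusted p under 0.05 by limma. Their median difference was 0.20, and 3 of the 11 were negative. Ccnd1, which encodes cyclin D1, read 3.29 and 3.11 in Vav-Etv2 KSL cells and 2.04 and 2.37 in control KSL cells, a difference of 1.00 (SE 0.28, limma adjusted p = 0.419). E2f2, a transcription factor that drives entry into S phase, differed by 0.83 (SE 0.36, limma adjusted p = 0.699). Ccne1 and Ccnd3, genes of cyclins E1 and D3, differed by 0.77 and 0.66. Between cell types, 4 of the 11 were higher and 3 lower in control KSL than in control Gr cells. Ccnd1 was higher by 3.55 (limma adjusted p = 0.000946), and E2f2 was lower, with a difference of -3.26 (limma adjusted p = 0.00213). Ccnd3 was also among the lower ones, and its limma adjusted p was 0.0509 without the first control KSL array.

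Around Vasn, 0 of 21 measured TGF-beta genes passed in KSL cells, with 1 at an unadjusted p under 0.05 by limma. Their median difference was 0.04, and 10 of the 21 were negative. Lrrc32, or GARP, which displays latent TGF-beta on regulatory T cells and platelets, read 3.80 and -0.60 in Vav-Etv2 KSL cells against -2.37 and -1.78 in control KSL cells (difference 3.67, SE 1.54, limma adjusted p = 0.673). Ltbp1, which anchors latent TGF-beta to the matrix, read 1.45 and -2.80 in Vav-Etv2 KSL cells against -3.51 and -2.97 in control KSL cells. Both stood high on the first Vav-Etv2 array. Ltbp3, of the same family, differed by -1.21 (SE 0.45). Ltbp2 read -2.49 and -4.07 in Vav-Etv2 KSL cells against -5.26 and 0.70 in control KSL cells, where the lower value was not well above background. Its difference was -3.98 without the first control KSL array and 1.98 without the second, so it has no settled direction. Between cell types 5 of the 21 were higher and 4 lower in control KSL than in control Gr cells, and Ltbp3 was higher by 3.08 (limma adjusted p = 0.00477).

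Around Mid1, 0 of 8 measured genes of the MID family and PP2A passed in KSL cells by limma, and 0 had an unadjusted p under 0.05. Their median difference was 0.20, and 2 of the 8 were negative. Trim36 and Trim9, close relatives of Mid1, differed by 1.41 (SE 0.85) and 0.58 (SE 0.78). Ppp2ca and Ppp2cb, the genes of the PP2A catalytic subunits, differed by 0.27 (SE 0.27) and 0.26 (SE 0.30). Between cell types 1 was higher and 2 were lower in control KSL than in control Gr cells. Ppp2cb was among the lower ones, at -1.48 (limma adjusted p = 0.0124), and its adjusted p was 0.0858 without the first control KSL array and 0.0829 without the second.

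Around Vnn1, 0 of 13 pantetheine and coenzyme A genes passed in KSL cells by limma, and 0 had an unadjusted p under 0.05. Their median difference was 0.08, and 3 of the 13 were negative. Vnn3, the other vanin on the list, read -6.34 and -3.12 in Vav-Etv2 KSL cells and -3.25 and -2.88 in control KSL cells, a difference of -1.67 (SE 1.25) that rests on the first Vav-Etv2 array. The vanins differed in cell type. Vnn3 was lower in control KSL than in control Gr cells, with a difference of -4.57 (limma adjusted p = 0.0316), with 2.80 and 0.22 in control Gr cells, whereas Vnn1 was measured in control KSL cells alone. Without single control arrays the adjusted p of Vnn3 was 0.13, 0.111 and 0.157 (first KSL, second KSL and first Gr). Cdo1, which turns cysteine into a sulfinic acid, and Ppcdc and Ado, which act in coenzyme A synthesis and cysteamine oxidation, had fitted differences in KSL cells of 0.84, 0.74 and 0.45. Cdo1 was not well above background on any KSL array and stood at -0.26 with low signals raised to the detection floor, so its KSL value is not a measured difference. Between cell types 2 of the 13 were higher and 2 lower in control KSL than in control Gr cells. Cdo1 was among the lower ones, at -2.90 (limma adjusted p = 0.00327), a call lost with normexp background correction (adjusted p = 0.326) and with low signals raised to the detection floor (0.054).

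Around Clec1a, 0 of 7 measured genes of the lectin cluster passed in KSL cells by limma, and 3 had an unadjusted p under 0.05. Their median difference was 0.01, and 3 of the 7 were negative. Clec1b, the platelet receptor for podoplanin, read 4.78 and -0.14 in Vav-Etv2 KSL cells against -1.79 and -1.47 in control KSL cells (difference 3.95, SE 1.45, limma adjusted p = 0.606). Clec9a, a receptor of dendritic cells for dead cells, read 1.58 and -0.41 in Vav-Etv2 KSL cells against -0.90 and -0.96 in control KSL cells. Clec2d, a ligand of an NK cell receptor, read -0.35 and 0.47 in Vav-Etv2 KSL cells against 1.26 and 1.00 in control KSL cells, a difference of -1.07 (SE 0.35). Olr1, the lectin-like receptor for oxidised LDL, differed by -0.66 (SE 0.96), but by 0.24 without the second control KSL array and 0.80 without the first Vav-Etv2 KSL array. It was lower in control KSL than in control Gr cells, with a difference of -5.62 (limma adjusted p = 0.0075), and the adjusted p was 0.052 without the first control KSL array. Between cell types 1 of the 7 was higher and 3 were lower in control KSL than in control Gr cells.

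Summed levels of cell type markers differed between the KSL arrays, although 0 of the 59 measured genes of 9 marker lists passed the test in KSL cells (limma, 15 at an unadjusted p under 0.05). The sums of stem cell, T and NK cell and stromal genes were lower on both Vav-Etv2 arrays than on both control arrays. Those of B cell, monocyte and erythroid genes were higher on both. The sums of endothelial, megakaryocyte and neutrophil genes did not follow the groups, although several single endothelial genes did. Summed signals over the 75th percentile of 10 stem cell genes were 43.3 and 39.0 in Vav-Etv2 KSL cells against 73.7 and 78.0 in control KSL cells. All 10 were well above background in both control arrays and 8 in each Vav-Etv2 array, where Hoxb5 was not well above background in either. Such sums are led by the brightest genes, and single genes can go the other way. By gene, 8 of the 10 stem cell differences were negative, with a median of -0.72. Hlf, at 0.45 and 2.64 against 4.63 and 4.53, gave the largest part of the drop. Tek was higher by 2.40 (SE 1.07), and Slamf1 and Fgd5 differed by 0.01 and -0.01. The sum of 7 B cell genes was 67.8 and 95.1 in Vav-Etv2 KSL cells against 22.3 and 22.4 in control KSL cells, and that of 5 monocyte and macrophage genes was 38.5 and 42.4 against 19.8 and 21.3. The sum of 8 endothelial genes was 73.0 and 14.3 in Vav-Etv2 KSL cells against 20.7 and 15.9 in control KSL cells, and that of 5 megakaryocyte genes was 145 and 37.6 against 62.1 and 74.5. Both were high on the first Vav-Etv2 array, where Clec1b, Lrrc32 and Ltbp1 were high as well. By gene, 1 of the 8 endothelial differences in KSL cells was negative, with a median of 1.08. Flt1 read 3.77 and -1.29 in Vav-Etv2 KSL cells against -2.98 and -2.71 in control KSL cells. Pecam1 read 1.10 and 0.49 against -0.07 and -0.14. Cdh5, Sox18 and, only just, Emcn also lay above both controls on both arrays. Esam, Tie1 and Kdr did not. Kdr, the brightest of the 8 on both control arrays, differed by -0.15. The sum of 8 neutrophil genes was 521 and 2048 in Vav-Etv2 KSL cells against 1966 and 1868 in control KSL cells. The sums were 2.97 and 2.92 against 5.65 and 5.38 for 6 T and NK cell genes, 8.34 and 9.11 against 13.6 and 11.4 for 6 stromal genes, and 9.09 and 8.25 against 7.63 and 7.30 for 4 erythroid genes. The part of these shifts in the values of the 5 genes was not tested.

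**Figure D4:**
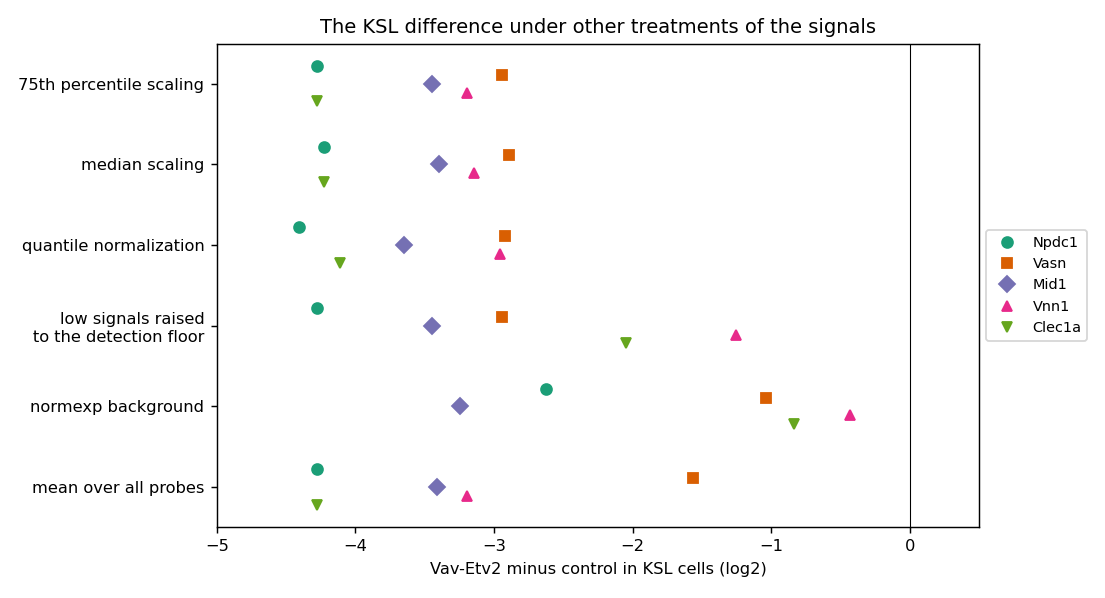
Difference between Vav-Etv2 and control KSL samples (horizontal axis, log2, 2 arrays a group) for the 5 genes under 6 treatments of the signals, 1 per row. All points lie left of 0. Mid1 stays between -3.65 and -3.24, whereas with normexp background correction Vnn1 lies at -0.43, Clec1a at -0.84 and Vasn at -1.03.

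For the dim genes the size of the difference depended on the background correction. With normexp, which keeps a constant offset of 50 in the signal, the KSL difference was -2.63 for Npdc1, -1.03 for Vasn, -0.43 for Vnn1 and -0.84 for Clec1a, whereas Mid1 stayed at -3.24. With low signals raised to the detection floor, Vnn1 stood at -1.25 and Clec1a at -2.05. The direction in KSL cells was the same under each of these.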

How the data were processed

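RNA of 8 sorted bone marrow samples was measured on 1-colour Agilent arrays. Per the file headers, the deposited intensity columns came from Agilent Feature Extraction 10.7.3.1, and the processed signal was already background-subtracted by the authors' software. The deposited quality columns hold marks of 0 or 1 per spot. The deposited value table holds log2 values, of which 99.78% lay within 0.01 of processed signals scaled and centred here per cell type, so it served only as an alternative within a cell type. Here, spots of a probe were averaged (20 probes dropped for flagged spots), and log2 signals were taken relative to each array's 75th percentile. Probes well above background on at least 2 arrays were kept (32354), and the probe with the highest mean stood for its gene (23231 features). Probes were named by transcript accession (26582), current (2602) or older symbol (492), or kept the file's name (26005). limma 3.58.1 (R 4.3.3) fitted 1 mean per group over all 8 arrays, with 4 residual degrees of freedom, and p-values were adjusted by Benjamini-Hochberg, with a threshold of 0.05. The fit was tested on simulated data. Where a group was not well above background, folds are bounds against the lowest well-above-background signal of each array. A reading above that signal was used itself. The number of arrays limits the precision. The members and lists were chosen with earlier results of these data known. All 5 genes, up to 4 genes per list with the largest KSL differences, and for each gene the 3 features of highest correlation were named. Ly6g had no value under that name. Replicate numbers came from the sample titles, and deviations of same-numbered arrays correlated by 0.07 in KSL and 0.66 in Gr cells, in 2 pairs. The fit did not treat them as pairs, although in Gr cells same-numbered arrays resembled each other. Its errors therefore also hold the difference between replicate numbers. Alternatives covered background correction, normalization, scaling, a signal floor, filters, probe choice, samples fitted, a replicate block, an intensity trend, the deposited values and leaving out each array.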

Additional observations from a re-analysis of the deposited data

Results flagged for a closer look

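Mid1 differed in opposite directions in the 2 cell types, with every Vav-Etv2 array below every control in KSL cells and above every control in Gr cells. Its difference was -3.45 in KSL and 2.22 in Gr cells, so that the KSL difference minus the Gr difference was -5.67 on the log2 scale. This difference was not tested, because Mid1 was chosen by the values behind it.

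Clec2d, from the list of genes around Clec1a, also separated in opposite directions. Its levels were -0.35 and 0.47 in Vav-Etv2 KSL cells against 1.26 and 1.00 in control KSL cells, and 0.88 and 1.11 in Vav-Etv2 Gr cells against 0.46 and 0.50 in control Gr cells. The difference was -1.07 in KSL and 0.51 in Gr cells (0.53 without the array labelled Gr control 2), and the KSL difference minus the Gr difference was -1.58. It is shown for the separation of the arrays. Taken 1 cell type at a time, 25.5% of all features were separated downward in KSL cells and 5.84% upward in Gr cells. The share separated in both ways was not counted. Clec2d passed the test in neither cell type (limma adjusted p = 0.542 in KSL cells), and the difference between the cell types was not tested.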

How the results depend on the processing

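All 5 genes kept a negative KSL difference under every alternative that gave a value. With normexp background correction, Npdc1 stood at -2.63, Vasn at -1.03, Vnn1 at -0.43 and Clec1a at -0.84. Quantile normalization gave -2.95 for Vnn1 and -4.11 for Clec1a, median scaling gave -4.23 for Clec1a, the signal floor gave -1.25 for Vnn1 and -2.05 for Clec1a, and the mean over both probes, 1 of them without signal, gave -1.56 for Vasn. Leaving out each array gave -4.88 to -3.69 for Npdc1, -3.15 to -2.74 for Vasn, -3.86 to -3.04 for Mid1, -3.39 to -3.01 for Vnn1 and -4.29 to -4.27 for Clec1a. A filter for signals well above background on all 8 arrays removed the 5 genes.

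The count of features called in KSL cells was 4 in the fit as reported. It was 16 with normexp, 50 with quantile normalization, 27 with median scaling and 10 with the signal floor. It was 0 under the filter on all 8 arrays (limma, 944 at an unadjusted p under 0.05, fewer features tested), and 0 to 37 with arrays left out, 37 without the second Vav-Etv2 KSL array and 0 without the second control KSL array (970 unadjusted). In Gr cells it was 2, and 0 with normexp (78 unadjusted), 0 under the filter on all 8 arrays (114), 0 with only the Gr arrays (158), 1 with no filter, 1 with each probe by itself, 1 with the intensity trend, and 0 to 2 with arrays left out (0 without the array labelled Gr control 2, 1936 unadjusted). The count between control cell types, 8065, was 2199 to 9391 with arrays left out, 2238 and 2199 without the first and second control KSL array and 4021 without the first control Gr array. With the replicate number as a block it was 4 in KSL cells, 0 in Gr cells (381 unadjusted) and 9383 between cell types, and the differences of the 5 genes were unchanged, since the block leaves balanced means as they are. Of the Gr differences of the 5 genes, 3 moved, namely Npdc1 to 0.39 with the signal floor, Mid1 to 0.81 and Vnn1 to 0.10 with normexp. Of the list genes, Ltbp2 in KSL cells lay between -3.98 and 1.98 with arrays left out (1.98 without the second control array) and Olr1 between -2.11 and 0.80 (0.24 without the second control array, 0.80 without the first Vav-Etv2 array), and Cdo1 turned to -0.26 with the signal floor. Of the list genes' differences that are not reported with values, 14 in Gr cells and 2 between cell types changed sign under at least 1 alternative. The cause was not tested. Slide as a block could not be fitted, with 1 slide. Signal over background limits Vasn, Vnn1 and Clec1a in Vav-Etv2 KSL cells and Npdc1, Vnn1 and Clec1a in Gr cells.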
